A study of Mus musculus with 12 samples.

Results

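The ADAM family membrane sheddases described here are 6 genes, Adam8, Adam9, Adam10, Adam15, Adam17 and Adam19, out of 24445 gene symbols and 34 ADAM-named genes in the count files. They were selected on measured values: the members were proposed with the ECH, HF and Ct contrasts of these same libraries known, and the study itself singles out Adam8 and Adam10 in them. Their differences between groups are therefore given as a description, with no p value printed for any member. Where members that passed a threshold are counted or named, nothing is read from it. All 6 members had enough counts to enter the fit.

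RNA was sequenced from cardiac macrophages (Mφ) that carried CD14 and CD64 and were sorted by FACS from the hearts of 12 C57BL6/J mice, 1 library per mouse. Ct mice (n = 4) carried a pump with saline. ECH mice (n = 4) had early concentric hypertrophy after 14 days of isoproterenol (iso), which stimulates β-adrenergic receptors, at a dose of 30 mg/kg/day, and HF mice (n = 4) had heart failure after 28 days of that dose. The labels name no transgene or deletion in any group, and they do not say how long each Ct mouse was infused.

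ADAM proteins are membrane-anchored proteins with a metalloproteinase domain and an integrin-binding disintegrin domain. The active members cut the outer part of other membrane proteins close to the cell surface, which sets free cytokines, growth factors and receptors and can also end adhesion. ADAM17 releases TNFα, ADAM10 opens Notch receptors and cuts the amyloid precursor protein, both can release the chemokine CX3CL1, and ADAM8 is a sheddase of leukocytes. Shedding is also set by maturation, transport and inhibitors of the protein, none of which a transcript level measures.

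In build GRCm38 the genes lie apart from each other. Adam8 occupies chr7:139978932-139992562 on the minus strand, Adam9 chr8:24949611-25016927 on the minus strand, Adam10 chr9:70678997-70780229 on the plus strand, Adam15 chr3:89338542-89349996 on the minus strand, Adam17 chr12:21323509-21373632 on the minus strand and Adam19 chr11:46055992-46147343 on the plus strand. Adam8 and Adam15 are compact genes of 13.6 and 11.5 kb, whereas Adam10 and Adam19 span 101.0 and 91.4 kb. The exons of Adam17 share 311 bases with those of Iah1 on the other strand, a gene that the files also count. Antisense transcripts share 1263 exon bases with Adam15, 587 and 480 with Adam19 and 46 with Adam8. No source used here says whether counting used strand, so reads of these genes and of their antisense partners cannot be told apart in the shared stretches.

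The start-site windows of the member that differed most between the groups and of both classical sheddases are shown to set their base composition and motifs side by side. They run from 250 bases before to 50 bases after the annotated start and come from RefSeq on GRCm38.p6, which held windows for 5 of the 6 members. Capitals mark every match to 6 motifs searched on both strands, namely TGACGTCA (cAMP response element), TGACG (its first part), TGANTCA (AP-1), GAGGAA (PU.1 core), CACGTG (E-box) and TTGCNNAA (C/EBP).
Adam8, chr7:139992513-139992812, minus strand: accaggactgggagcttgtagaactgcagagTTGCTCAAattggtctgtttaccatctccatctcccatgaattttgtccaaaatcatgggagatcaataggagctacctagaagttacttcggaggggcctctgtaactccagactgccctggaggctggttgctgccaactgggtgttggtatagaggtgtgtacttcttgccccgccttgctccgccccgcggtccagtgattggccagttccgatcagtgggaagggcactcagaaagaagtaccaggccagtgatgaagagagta
Adam10, chr9:70678732-70679031, plus strand: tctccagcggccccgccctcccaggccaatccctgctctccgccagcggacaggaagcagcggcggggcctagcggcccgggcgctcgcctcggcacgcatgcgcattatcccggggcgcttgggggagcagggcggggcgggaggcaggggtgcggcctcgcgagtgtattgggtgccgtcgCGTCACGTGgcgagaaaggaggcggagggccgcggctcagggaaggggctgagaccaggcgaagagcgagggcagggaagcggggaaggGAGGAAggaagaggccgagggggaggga
Adam17, chr12:21373583-21373882, minus strand: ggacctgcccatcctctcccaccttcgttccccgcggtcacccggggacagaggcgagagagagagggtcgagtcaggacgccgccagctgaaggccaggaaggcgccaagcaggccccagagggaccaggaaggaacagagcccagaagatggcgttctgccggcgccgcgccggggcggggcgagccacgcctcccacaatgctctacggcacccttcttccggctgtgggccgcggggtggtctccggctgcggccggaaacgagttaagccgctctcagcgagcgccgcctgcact

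The Adam8 window held 52.3% G and C, close to the median of 52.7% over 32851 mouse promoter windows, whereas those of Adam10 and Adam17 held 73.3% and 70.0%. The Adam8 window had a single match, to the C/EBP motif at position -219, counted from the annotated start as 0, and 10.8% of all windows held that motif. The Adam10 window had TGACG at position -67 overlapping CACGTG at position -64, motifs held by 20.8% and 7.15% of all windows, and GAGGAA, held by 28.3%, at position 22. In the Adam17 window none of the 6 motifs was found. The complete cAMP response element (1.79% of all windows) was in none of the members' windows, and TGANTCA (7.81%) was found in 1 of the windows of Adam19. These matches describe the letters of the windows and do not bear on binding.

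The libraries held 88466559 to 111180291 counts each, and the lowest count of any member in any library was 3304, for Adam8, so counting error was small beside the spread between mice. Levels are given as CPM, counts scaled to the library size after TMM normalisation. Among markers fixed for the sort, the 8 Mφ genes summed to between 10662 and 14121 CPM in all groups, and none was at 0 in a whole group. None of the 8 was called, but single markers differed in level, and Itgam, which codes for CD11b, a gate of the sort, was at 223 to 559 CPM in Ct, 635.8 to 787 CPM in ECH and 407 to 702 CPM in HF mice, with every ECH mouse above every Ct mouse and a log2 difference of 0.92 (SE 0.24) and an adjusted p of 0.132 in edgeR's quasi-likelihood test. Its part in the levels of the members was not tested. Ct library 2 and HF library 1 had the fewest genes detected, 14489 and 13600 against 15054 to 15940 in the other libraries. The index numbers in the labels fall into 2 sets that were inferred here, with all Ct libraries and ECH mice 1 and 2 in one set and ECH mice 3 and 4 and all HF libraries in the other, so no set holds both Ct and HF mice, and a fit with the set as a covariate rests on the ECH mice alone for the offset between the sets.

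Adam8 differed most between the groups among the members. Its level was 39.7, 40.05, 38.5 and 32.0 CPM in Ct mice 1 to 4, 266, 206, 414 and 229 CPM in ECH mice and 109.9, 170.4, 167 and 192 CPM in HF mice. The Ct mice lay close together, every ECH mouse was above every HF mouse, and every HF mouse was above every Ct mouse. The means were 37.5 ± 3.78 CPM in Ct, 279 ± 93.6 in ECH and 159.7 ± 34.9 in HF (SD, n = 4). On the log2 scale of the fit, ECH exceeded Ct by 2.89 (SE 0.23), a 7.43-fold difference, HF exceeded Ct by 2.09 (SE 0.23), 4.25-fold, and ECH exceeded HF by 0.80 (SE 0.22), 1.75-fold. Among the 8648 genes with a mean of at least 10 CPM, the Adam8 difference ranked 7 from the highest in ECH against Ct and 11 in HF against Ct. The ECH mice of both library sets were far above the Ct mice, with a log2 difference of 2.65 for ECH mice 1 and 2 and 3.10 for ECH mice 3 and 4 against all Ct mice, a comparison added after the values were seen. With the set as a covariate HF exceeded Ct by 1.64.

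**Figure D1:**
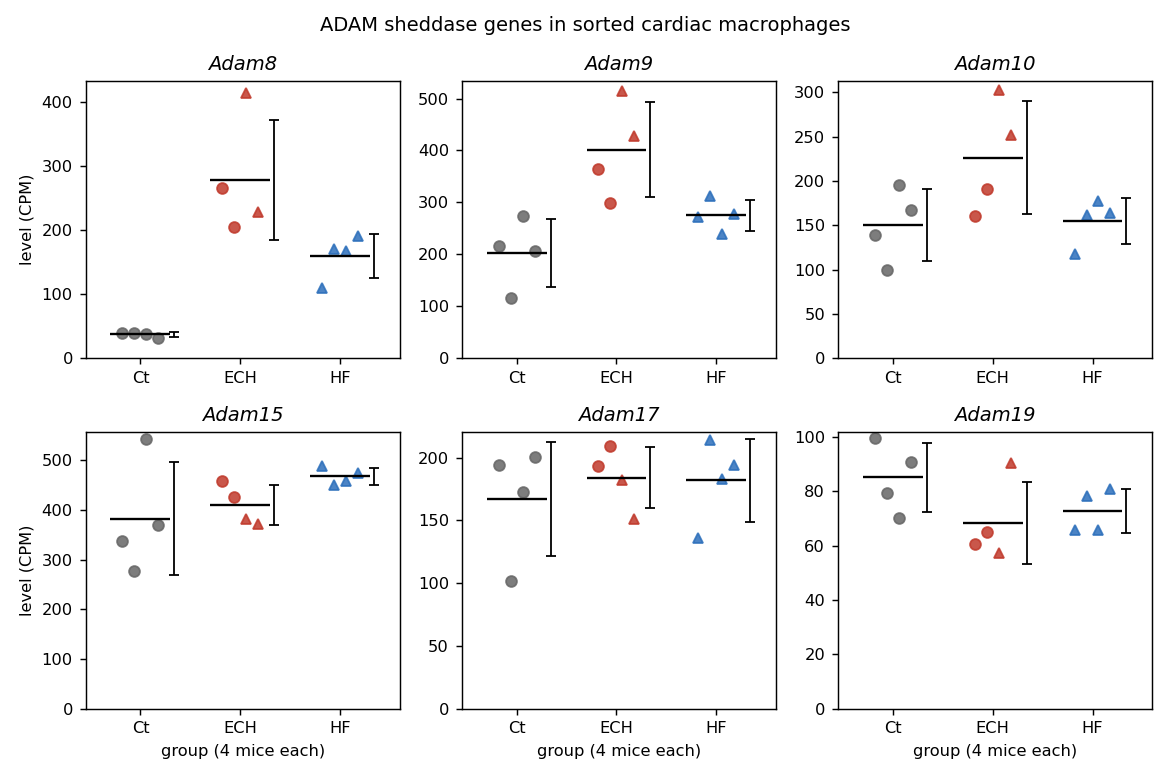
Level in CPM (vertical axes, linear from 0) of the 6 ADAM sheddase genes in each library by group, with circles for the library set that holds all Ct mice, triangles for the set that holds all HF mice, a line for the group mean and a bar for ± 1 SD (n = 4 mice). Adam8 separates the 3 groups, from at most 40.05 CPM in Ct to at least 205.5 CPM in ECH, Adam9 separates ECH from Ct, and the groups overlap for the other members.

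Neutrophils also express Adam8. None of the 7 neutrophil markers was called in any comparison. Their summed level ranged from 344 to 1612 CPM in Ct (median 890.4), 191 to 515 CPM in ECH mice (median 315) and 131 to 1266 CPM in HF mice (median 266). The neutrophil-defining Ly6g was low in all groups, at 0.0967 to 2.76 CPM in Ct, 0 to 2.30 CPM in ECH and 0 to 1.91 CPM in HF. The 5 monocyte markers summed to 237 to 547 CPM in Ct, 499.7 to 672 CPM in ECH and 516 to 880.1 CPM in HF mice, and the 5 fibroblast markers to 25.9 to 173 CPM in Ct, 76.0 to 389 CPM in ECH and 75.8 to 221 CPM in HF mice. The 6 B and T cell markers summed to 75.4 to 368 CPM in Ct, above the ranges of ECH (12.8 to 67.1) and HF (35.7 to 49.98). The 5 dendritic cell markers summed to 52.7 to 65.2 CPM in Ct, below the ranges of ECH (76.7 to 124) and HF (96.8 to 120.4), and the endothelial and cardiomyocyte markers overlapped between the groups. Monocyte and dendritic cell markers did not all go the same way. Of the 5 in each list, 4 in ECH and 3 in HF had a fitted difference from Ct above 0. Mean Ccr2, the highest of the monocyte list, was 319, 424 and 595 CPM in Ct, ECH and HF, while Plac8 averaged 12.3, 5.27 and 5.70 CPM. Cd209a, the highest of the dendritic cell list, averaged 45.2, 49.0 and 84.2 CPM, while Xcr1 averaged 3.54, 2.68 and 2.04 CPM. Per the paper, leukocytes were enriched by CD45 and then sorted on CD11b and on CD14 and CD64. The part of other cell types in the levels of the members was not tested, and in bulk samples fewer cells of a type and less RNA per cell cannot be told apart.

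Adam9, a widely expressed sheddase that can cut membrane-bound growth factors, had the next largest difference between ECH and Ct. It was at 216, 116, 274 and 206 CPM in Ct mice, 364, 299, 514 and 428 CPM in ECH mice and 271, 312, 239.8 and 277 CPM in HF mice. All ECH mice were above all Ct mice, whereas HF mice overlapped both groups. The log2 difference was 0.98 (SE 0.23) for ECH against Ct, 0.44 (SE 0.23) for HF against Ct and 0.55 (SE 0.23) for ECH against HF. Ct library 2 gave the lowest value, and without it and HF library 1 the difference between ECH and Ct was 0.78. With the library set as a covariate the difference between HF and Ct was -0.066.

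Adam10, the sheddase of Notch and of the amyloid precursor protein, was at 138, 99.9, 196 and 167 CPM in Ct mice, 159.9, 190.45, 303 and 252 CPM in ECH mice and 117, 162, 177 and 164 CPM in HF mice. ECH mice 3 and 4 were above every mouse of the other groups, while ECH mice 1 and 2 lay within the range of the Ct mice. The log2 difference was 0.59 (SE 0.23) for ECH against Ct, 0.04 (SE 0.23) for HF against Ct and 0.55 (SE 0.23) for ECH against HF. Against all Ct mice it was 0.22 for ECH mice 1 and 2, which share their library set, and 0.88 for ECH mice 3 and 4, which do not. Within the set of the HF mice, ECH mice 3 and 4 exceeded HF by 0.84, and with the set as a covariate the difference between HF and Ct was -0.62. The part of the library set in the Adam10 difference was not tested beyond these values.

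Adam17, the TNFα-converting enzyme, was at 194, 102, 173 and 201 CPM in Ct mice, 194, 209, 182 and 151.5 CPM in ECH mice and 136, 214, 183 and 194 CPM in HF mice. The groups overlapped throughout, and the lowest values were those of Ct library 2 and HF library 1, both with few genes detected. The log2 difference was 0.14 (SE 0.21) for ECH against Ct, 0.12 (SE 0.21) for HF against Ct and 0.02 (SE 0.21) for ECH against HF. Without those libraries the difference between ECH and Ct was -0.05.

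Adam15, a member whose disintegrin domain binds integrins, was at 338, 278, 544 and 370.2 CPM in Ct mice, 459, 426, 382 and 373 CPM in ECH mice and 488, 449.7, 458 and 474 CPM in HF mice. Ct mouse 3 was above all other mice, and the HF mice lay within a narrow band above 3 of the 4 Ct mice. The log2 difference was 0.10 (SE 0.17) for ECH against Ct, 0.29 (SE 0.17) for HF against Ct and -0.19 (SE 0.17) for ECH against HF.

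Adam19, known for shedding neuregulin, was the only member whose fitted difference from Ct was negative in both iso groups. It was at 99.7, 79.5, 70.4 and 91.0 CPM in Ct mice, 60.7, 64.9, 57.2 and 90.5 CPM in ECH mice and 65.8, 78.45, 65.9 and 80.8 CPM in HF mice. ECH mouse 4 was level with Ct mouse 4 and the groups overlapped. The log2 difference was -0.32 (SE 0.17) for ECH against Ct, -0.23 (SE 0.17) for HF against Ct and -0.09 (SE 0.17) for ECH against HF.

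**Figure D2:**
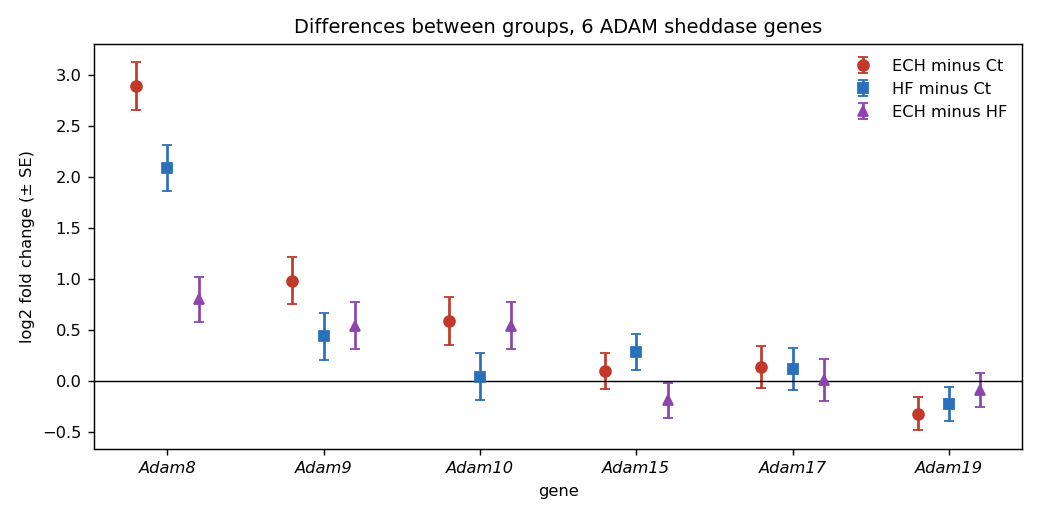
Fitted log2 fold change (vertical axis) with its SE for each of the 6 genes in the comparisons ECH minus Ct (circles), HF minus Ct (squares) and ECH minus HF (triangles), from the model of all 12 libraries. Adam8 stands at 2.89 and 2.09 against Ct, Adam9 at 0.98 and 0.44, and Adam15, Adam17 and Adam19 lie between -0.32 and 0.29.

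Calls required at least a 2-fold difference and an FDR below 0.05 in edgeR's quasi-likelihood test, adjusted over all 14608 genes with enough counts. In ECH against Ct the call held for 1 member, Adam8, where 0.356% of all genes tested were called, and in HF against Ct for the same member, where 0.377% were called. In ECH against HF it held for 0 members and for 0% of all genes. An unadjusted p under 0.05 was reached in ECH against Ct by 3 members (11.9% of all genes), in HF against Ct by 1 (16.1%) and in ECH against HF by 3 (7.98%). DESeq2 and limma-voom likewise called 0 members in ECH against HF, and DESeq2 called 47 genes in all there. Without any overlap, ECH mice were above Ct mice for 2 members (4.33% of all genes), HF mice above Ct mice for 1 (4.59%) and ECH mice above HF mice for 1 (3.56%). Without Ct library 3 the call in ECH against Ct held for 2 members, Adam8 and Adam9, and with the library set as a covariate the call in ECH against HF held for 1, Adam8. How many of all genes were called in these 2 fits was not counted, so their member counts have no share to be set beside. Because the rule used these contrasts, nothing is read from these counts. Both comparisons with Ct share the Ct mice, and both comparisons of ECH share the ECH mice.

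To compare the genes with each other, CPM was divided by the summed length of all annotated exons of each gene in kb, which gives RPKM. In Ct the order was Adam15 (62.3 ± 18.6 RPKM, SD, n = 4), Adam9 (49.3 ± 15.9), Adam10 (30.6 ± 8.35), Adam17 (23.4 ± 6.35), Adam19 (11.96 ± 1.81) and Adam8 (8.10 ± 0.815). Adam9, Adam10 and Adam17 each overlapped with the gene before them, whereas all Adam19 values lay below those of Adam17 and all Adam8 values below those of Adam19. In ECH Adam9 was highest (97.5 ± 22.2 RPKM), followed by Adam15 (66.7 ± 6.51), Adam8 (60.1 ± 20.2), Adam10 (46.1 ± 12.96), Adam17 (25.7 ± 3.40) and Adam19 (9.60 ± 2.13). There Adam15, Adam8 and Adam10 each overlapped with the gene before them, whereas all Adam17 values lay below those of Adam10 and all Adam19 values below those of Adam17. In HF the order was Adam15 (76.0 ± 2.79 RPKM), Adam9 (66.8 ± 7.20), Adam8 (34.4 ± 7.53), Adam10 (31.5 ± 5.33), Adam17 (25.4 ± 4.61) and Adam19 (10.2 ± 1.13). Adam9 overlapped with Adam15, Adam8 lay below Adam9, Adam10 overlapped with Adam8 and Adam17 with Adam10, and Adam19 lay below Adam17. Adam8 ranked 6 in Ct and 3 in ECH and HF, and its share of their summed RPKM was 4.62% ± 1.52 in Ct, 19.3% ± 3.50 in ECH and 14.0% ± 2.31 in HF. The share of Adam15 was 33.4% ± 3.53, 22.3% ± 4.60 and 31.3% ± 3.32 in the same groups. With the length of the longest transcript in place of all exons, Adam15 came before Adam9 and Adam17 before Adam10 over all mice.

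**Figure D3:**
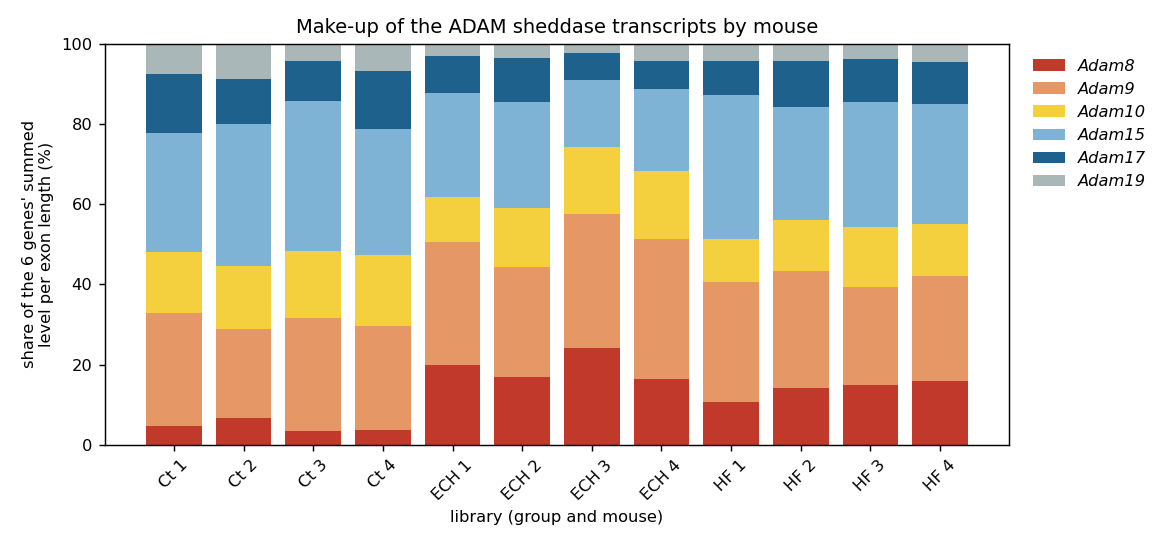
Share of each gene (stacked, in percent) in the summed RPKM of the 6 ADAM sheddase genes for each of the 12 libraries. Adam8, at the bottom of each bar, takes between 3.50% and 6.76% in Ct, between 16.5% and 24.04% in ECH and between 10.7% and 16.04% in HF.

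Across the 12 libraries, on log2 CPM and as a description only, the closest pair of members by Pearson r was Adam9 and Adam10 (r 0.82, Spearman rho 0.58), and r was 0.76 for the deviations from the group means. Adam8 and Adam9 had the highest rho of the member pairs (0.87, r 0.78), but r 0.29 within groups, and Adam8 and Adam19 had r -0.58 (rho -0.59) and -0.18 within groups. The genes tested whose pattern was most like that of Adam8 were Gpt2 (r 0.97, rho 0.90, within groups 0.74), Mmp14 (0.96, 0.78 and 0.81) and Cyth1 (0.95, 0.90 and 0.32). For Adam10 they were Hipk3 (r 0.96, within groups 0.94), Xrn2 (0.94 and 0.90) and Snora75 (0.93 and 0.89), and for Adam17 Syvn1 (0.96 and 0.96), Mast2 (0.96 and 0.96) and Timm21 (0.95 and 0.96). The libraries share their group, their library set and their quality, so these values say that the levels moved together across these mice and no more.

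The other 28 ADAM genes mostly had few or no counts. Of these, 18 had too few counts to be tested, with no library above 0.768 CPM, and 6 had no count in any library, where a limit of 3 counts allows at most 0.0349 CPM (counting error only). Of the 10 tested, Adam22 and Adam33 were the 2 with a mean above 10 CPM. Adam22, whose protein lacks metalloproteinase activity, was at 31.2, 19.5, 9.83 and 22.95 CPM in Ct mice, 14.6, 12.04, 16.4 and 18.6 CPM in ECH mice and 4.42, 8.92, 7.45 and 4.01 CPM in HF mice. All HF mice were below all Ct and all ECH mice, and Adam22 fell by 1.75 on the log2 scale (SE 0.35) in HF against Ct, with an adjusted p of 0.0494 in edgeR's quasi-likelihood test. This call was lost when any library other than Ct 3 was left out, with an adjusted p of up to 0.149, and also with the groups compared alone (0.112) and with the library set as a covariate (0.105). Adam33, chosen for its level after the values were seen, was at 59.2 ± 13.8, 46.6 ± 8.23 and 50.2 ± 14.1 CPM in Ct, ECH and HF (SD, n = 4) and was not called.

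Partners, inhibitors and substrates were measured next, in 11 lists of 95 genes that include the other ADAM genes, of which 73 could be tested. These genes were listed with earlier results of these libraries known, and the study names Cx3cl1, Mertk and Cd163 for differences in them, so the lists are not independent evidence of a direction. edgeR's quasi-likelihood test called 2 genes in ECH against Ct (App and Havcr2, both higher), 3 in HF against Ct (App higher, Cd40 and Adam22 lower) and 0 in ECH against HF, beside 52, 55 and 0 of all 14608 genes. The unadjusted p was under 0.05 for 16, 19 and 15 of the genes in the same order, which is 21.9%, 26.0% and 20.5% of those tested beside 11.9%, 16.1% and 7.98% of all genes. DESeq2 called 7, 5 and 2 of them, beside 248, 333 and 47 of all 14608 genes, and limma-voom 3, 5 and 0, beside 84, 130 and 0. The median log2 difference over the 73 genes was 0.15, 0.06 and 0.09, beside 0.01, -0.01 and 0.02 over all genes tested.

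**Figure D4:**
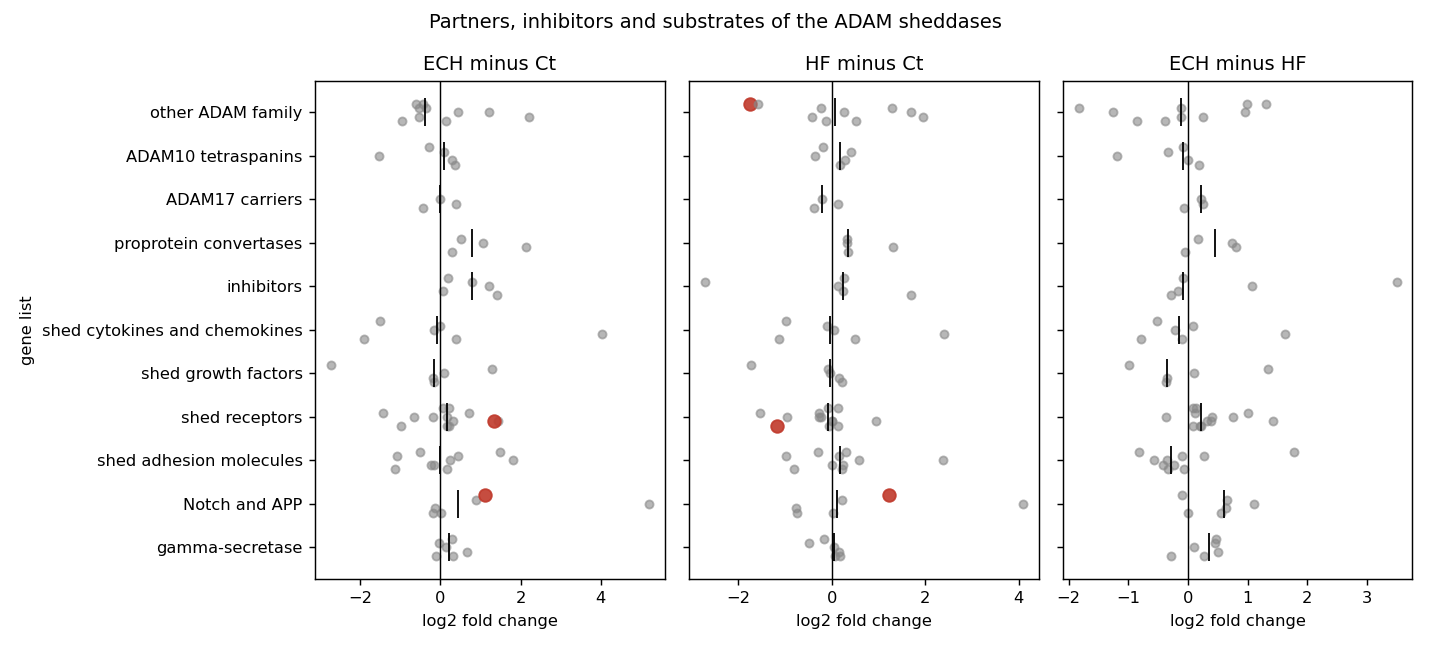
Fitted log2 fold change (horizontal axes) of each tested gene in the 11 lists (rows) for ECH minus Ct, HF minus Ct and ECH minus HF, with the list median as a vertical tick and called genes in red. App and Havcr2 are the called genes in ECH minus Ct, App, Cd40 and Adam22 in HF minus Ct, and none is called in ECH minus HF.

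Tetraspanins of the TspanC8 group carry ADAM10 out of the endoplasmic reticulum, and none of the 5 tested was called in any comparison. Tspan14 was the most abundant, at 152 ± 16.1 CPM in Ct, 185 ± 11.4 in ECH and 186 ± 10.4 in HF (SD, n = 4), with log2 differences from Ct of 0.28 (SE 0.11) and 0.29 (SE 0.11). Tspan17 was at 44.7, 47.3 and 59.7 CPM on average and Tspan5 at 25.2, 32.2 and 28.3 CPM. The iRhoms Rhbdf1 and Rhbdf2, which carry ADAM17 to the surface, and Frmd8, which holds the iRhom complex there, were not called either. Rhbdf1 was at 68.7 ± 29.8, 50.5 ± 7.84 and 52.8 ± 12.7 CPM in Ct, ECH and HF, Rhbdf2 at 49.3 ± 12.9, 64.2 ± 5.87 and 54.2 ± 14.8 CPM, and Frmd8 at 81.4 ± 13.1, 81.4 ± 6.35 and 70.1 ± 4.77 CPM.

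Proprotein convertases remove the inhibitory prodomain of most members, although ADAM8 removes its own. Furin was at 87.1 ± 14.4 CPM in Ct, 106 ± 12.4 in ECH and 110.2 ± 6.06 in HF, and Pcsk7 at 41.5 ± 9.83, 59.0 ± 6.89 and 52.2 ± 6.22 CPM (SD, n = 4). Neither was called. Among the 5 inhibitors none was called. Timp2 was abundant and level, at 1142 ± 210.1, 1199 ± 128 and 1340 ± 56.5 CPM. Timp3, the main inhibitor of ADAM17, was at 14.1 ± 12.9, 32.6 ± 16.1 and 15.5 ± 9.65 CPM, with wide spread in each group. Timp1, which inhibits ADAM10, was scarce, at 1.74 ± 1.12 CPM in Ct, 4.62 ± 1.15 in ECH and 5.61 ± 0.36 in HF, with log2 differences from Ct of 1.41 (SE 0.44) and 1.69 (SE 0.44) and adjusted p of 0.21 and 0.117 in edgeR's quasi-likelihood test.

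Of the 6 shed cytokines and chemokines none was called. Cx3cl1, the membrane-bound chemokine that ADAM10 and ADAM17 release, was at 1.93, 0, 1.18 and 1.25 CPM in Ct mice, 9.55, 11.3, 16.8 and 34.4 CPM in ECH mice and 6.45, 3.57, 5.34 and 7.88 CPM in HF mice. The groups did not overlap, the log2 difference was 4.04 (SE 0.92) for ECH against Ct and 2.41 (SE 0.85) for HF against Ct, and the adjusted p was 0.0828 and 0.21 in edgeR's quasi-likelihood test. DESeq2 called it in both comparisons. Tnf, the main substrate of ADAM17, was at 141, 136, 101 and 79.1 CPM in Ct mice, 258, 187, 50.5 and 102 CPM in ECH mice and 159, 242, 112 and 129.7 CPM in HF mice. Tnf spread more within ECH than between the groups, with its lowest and its highest value of all mice in that group. The 2 higher ECH values were those of ECH mice 1 and 2, which share the library set of the Ct mice. The 2 lower ones were those of ECH mice 3 and 4 in the other set. The part of the library set in this spread was not tested. Cxcl16, released by ADAM10, was at 407 ± 14.5, 365 ± 116 and 422 ± 22.1 CPM.

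**Figure D5:**
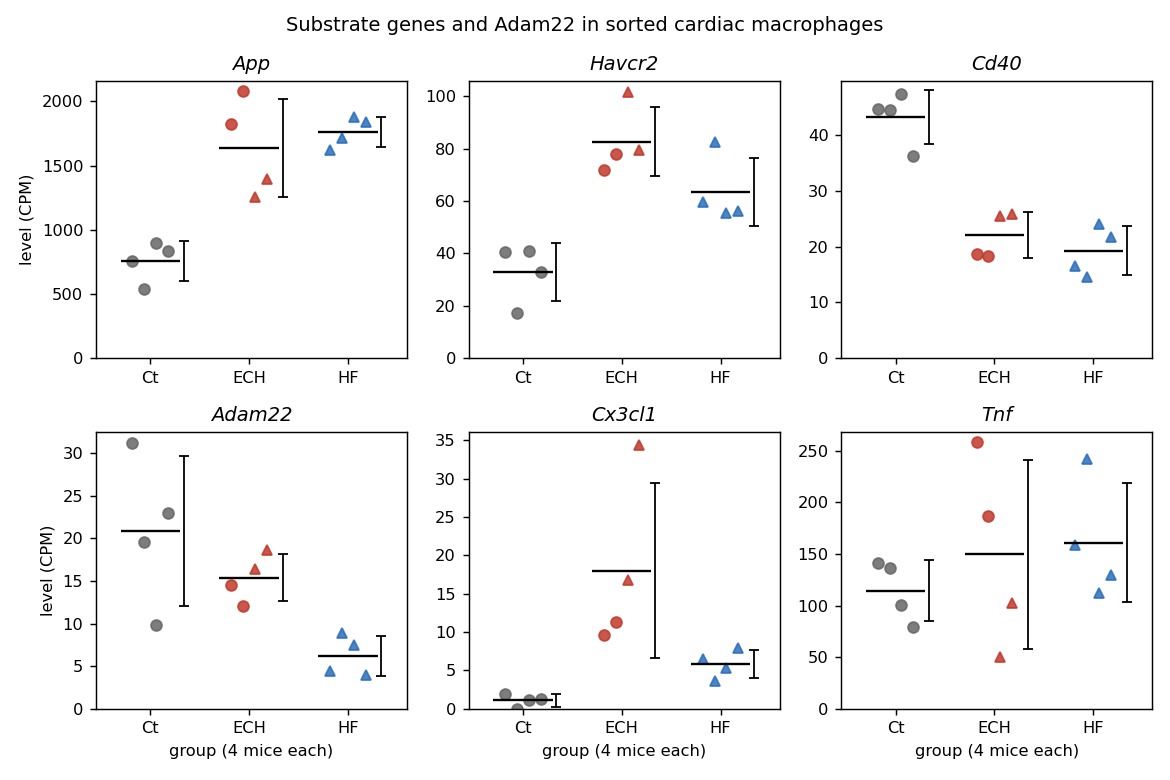
Level in CPM (vertical axes, linear from 0) of 5 substrate genes and Adam22 in each library by group, with circles for the library set that holds all Ct mice, triangles for the set that holds all HF mice, a line for the mean and a bar for ± 1 SD (n = 4 mice). App and Havcr2 are higher and Cd40 lower in every ECH and HF mouse than in every Ct mouse, Cx3cl1 is highest in ECH, and Tnf overlaps between the groups.

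App, the amyloid precursor protein that ADAM10 cuts, was at 757, 539, 895 and 833 CPM in Ct mice, 1828, 2082, 1252 and 1394 CPM in ECH mice and 1621, 1718, 1878 and 1836 CPM in HF mice. Every iso-treated mouse was above every Ct mouse. App rose by 1.12 on the log2 scale (SE 0.19) in ECH, with an adjusted p of 0.0202, and by 1.22 (SE 0.19) in HF, with an adjusted p of 0.0159, in edgeR's quasi-likelihood test. The ECH call was lost with the groups compared alone (adjusted p 0.109) and within 1 library set (adjusted p 0.213). The adjusted p for ECH was 0.0779 without Ct library 1 and 0.0526 without Ct library 4, the fold was under 2 without Ct library 2 (log2 0.99) or ECH library 2 (log2 0.98), and for HF the adjusted p was 0.0711 without Ct library 1, 0.052 without HF library 2 and 0.0534 without HF library 3. Its relative Aplp2 and the γ-secretase subunits that act after the sheddase were not called. Of the 6 subunits, the unadjusted p was under 0.05 for 1 in ECH against Ct (Psen2, 0.67 higher on the log2 scale), 1 in HF against Ct (Aph1a, at -0.48) and 3 in ECH against HF (Psen2, Aph1b and Aph1a, 0.51, 0.47 and 0.46 higher), named after their values were seen. Over all genes tested, 11.9%, 16.1% and 7.98% were under that p in the same order, and nothing is read from so few subunits. Of the Notch receptors, Notch2 was at 102 ± 26.6, 93.9 ± 21 and 60.4 ± 9.18 CPM and Notch1 at 44.9 ± 8.61, 39.6 ± 7.75 and 26.8 ± 2.22 CPM in Ct, ECH and HF, with adjusted p of 0.126 and 0.091 for HF against Ct in edgeR's quasi-likelihood test.

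Among the 13 shed receptors, Havcr2, which codes for the inhibitory receptor TIM-3, was at 40.5, 17.3, 40.8 and 32.7 CPM in Ct mice, 71.7, 77.9, 101.6 and 79.5 CPM in ECH mice and 59.6, 82.5, 55.4 and 56.2 CPM in HF mice. It rose by 1.33 on the log2 scale (SE 0.24) in ECH against Ct, with an adjusted p of 0.0326 in edgeR's quasi-likelihood test, and was 0.95 (SE 0.24) higher in HF with an adjusted p of 0.108. The call was lost without Ct library 1 or 4, ECH library 3 or 4 or HF library 3 or 4, with an adjusted p of up to 0.135, and also within 1 library set (0.76), in the fit with a set covariate (0.22) and with the groups compared alone (0.109). Cd40, the receptor for CD40 ligand, was at 44.7, 44.6, 47.5 and 36.4 CPM in Ct mice, 18.7, 18.4, 25.5 and 25.9 CPM in ECH mice and 16.5, 14.7, 24.1 and 21.8 CPM in HF mice. It fell by 1.17 on the log2 scale (SE 0.20) in HF against Ct, with an adjusted p of 0.0253, and stood at -0.97 (SE 0.20) in ECH, with an adjusted p of 0.0521, in the same test. The HF call was lost without Ct library 1 or HF library 1, 2 or 4, with an adjusted p of up to 0.0846, and without both Ct library 2 and HF library 1 (0.0757). The B and T cell markers were also below Ct in both iso groups, and B cells express Cd40. The sort, on CD11b and then on CD14 and CD64, would remove B and T cells, and the part of B cells in the Cd40 difference was not tested.

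Some substrates stood out in ECH without passing the test and were chosen after their values were seen. Mertk, an efferocytosis receptor, was at 121, 76.0, 95.0 and 177 CPM in Ct mice, 183, 174, 496 and 414 CPM in ECH mice and 108, 125, 91.6 and 144 CPM in HF mice. Vcam1, an adhesion molecule, was at 112, 165, 49.8 and 75.8 CPM in Ct mice, 331, 91.6, 325 and 384 CPM in ECH mice and 98.4, 117, 43.8 and 71.3 CPM in HF mice. The high Mertk values were those of ECH mice 3 and 4, the pair in the other library set, whereas Vcam1 was high in 3 of the 4 ECH mice. The adjusted p of ECH against Ct was 0.101 for Mertk and 0.192 for Vcam1 in edgeR's quasi-likelihood test. Among the libraries of 1 set only, ECH mice 3 and 4 and the HF mice, 7 listed genes were called, and Mertk, Vcam1, Cd163 and Il6ra were among them. How many of all genes were called among those libraries was not counted, so nothing is read from the 7. The abundant adhesion molecules Selplg, Cd44 and Icam1 were not called, and Icam1 was at 351 ± 114 CPM in Ct, 167 ± 92.1 in ECH and 179 ± 68.4 in HF. The growth factors that sheddases release were scarce, with Hbegf at 9.98 ± 5.21, 9.0 ± 8.97 and 11.6 ± 3.10 CPM and Areg at 7.17 ± 5.10, 6.30 ± 5.49 and 8.01 ± 2.95 CPM in Ct, ECH and HF. Nrg1, the neuregulin that ADAM19 releases, reached at most 4.43 CPM in any library.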

How the data were processed

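Per the paper's methods and the labels, the authors used the SMART-Seq v4 kit on RNA of the sorted cells and a NextSeq 500 for paired reads. Trimming was by Trimmomatic, alignment to mm10 (GRCm38) by TopHat2 and counting per gene by featureCounts. The files deposited by the authors hold raw counts per gene symbol, without normalization. Their versions, annotation and strand setting were not given in the sources used. Samples were grouped by the treatment in their labels, and the library sets were inferred from index numbers in the labels, which neither labels nor paper describe.

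The analysis used edgeR 4.0.16 in R 4.3.3 (filterByExpr by group, TMM, 1 quasi-likelihood model with a mean per group for all 12 libraries, Benjamini-Hochberg adjustment over the 14608 of 24445 genes tested). SE is the log2 fold change divided by the square root of F. Thresholds were an FDR of 0.05 and a fold of 2, as in the study. P values set a difference between groups against the spread between mice within groups, as estimated from all 12 libraries. Without the set as a covariate, a difference between HF and Ct cannot be told apart from an offset between the library sets. Log2 CPM for correlations used a prior count of 2. RPKM used GENCODE exon unions on GRCm38. Code was tested on simulated data. The alternatives used DESeq2 1.42.0 and limma 3.58.1 (voom with quality weights) and those named in the closing section. Plots used matplotlib 3.10.9 under Python 3.11.15.

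The members, gene lists, motifs and marker lists were chosen with earlier results of these data known. Genes named are the 6 members, every listed gene called in any comparison, otherwise the 3 with the highest mean CPM in a list, or a whole list of up to 6 genes, and the 3 genes with the highest Pearson r with Adam8, Adam10 and Adam17. Other genes named were chosen after their values were seen. A listed gene that this rule allows is not reported here. Replicate numbers did not pair the mice: of 12 same-numbered pairs, 0 had a correlation of deviations above 0.1 (-0.0701 to 0.0687).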

Additional observations from a re-analysis of the deposited data

Results flagged for a closer look

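In each group of 4 mice, the highest or lowest library was set against the others for 43 genes of the family and lists, 129 groups in all, and was marked where its gap to the nearest library was too large a part of the group's range by Dixon's test. Chance marks about 1 group in 20, which is about 6 here, and 5 were marked. No member of the family was among them. Furin was low in Ct library 2, at 65.7 CPM against 92.5 to 96.6. Tspan33 was low in Ct library 3, at 4.31 CPM against 12.99 to 14.3. Havcr2 was high in HF library 2, at 82.5 CPM against 55.4 to 59.6. Timp4 was high in ECH library 3, at 4.63 CPM against 1.43 to 1.84, and Reck in Ct library 4, at 2.89 CPM against 0.15 to 0.566.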

How the results depend on the processing

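The alternatives were RLE scaling, no filter, a filter of over 1 CPM in 4 libraries, DESeq2, limma-voom, the groups compared alone, the replicate number as a block, the library set as a covariate, 1 library set only, each library left out and Ct library 2 with HF library 1 left out, for listed genes also no fold threshold, and, added after seeing the data, ECH mice 1 and 2 or 3 and 4 against all Ct mice. No 1-set fit exists for HF against Ct.

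Adam8 kept its direction in all of them, from 2.64 to 3.10 (ECH against Ct), 1.64 to 2.26 (HF against Ct) and at least 0.55 (ECH against HF). A covariate for the library set moved HF against Ct by more than 1 SD between mice to 1.64 for Adam8, -0.066 for Adam9, -0.62 for Adam10 and -0.46 for Adam19, and ECH against HF for Adam15 to -0.31 (-0.31 also within 1 set). Of 402 such values over the members and alternatives, 396 moved by less and 21 took the other sign, each of a difference between -0.09 and 0.44.

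Listed genes called in ECH against Ct were 7 with DESeq2, 1 with the covariate (App, with Havcr2 lost) and 0 within 1 set, with the groups compared alone and under the replicate block. In HF against Ct they were 5 with DESeq2, 5 with limma-voom, 0 under the replicate block and 1 without Ct library 2 and HF library 1. In ECH against HF they were 2 with DESeq2, 5 with the covariate and 7 within 1 set. The number of all genes called was counted only for the edgeR fit reported above, DESeq2 and limma-voom, so the other counts have no share to be set beside. Leaving out 1 library gave 0 to 3 in ECH against Ct and 0 to 4 in HF against Ct. Under the replicate block the adjusted p was 0.0796 for App and 0.0796 for Havcr2 in ECH against Ct, and 0.0653 for App, 0.054 for Cd40 and 0.149 for Adam22 in HF against Ct. The replicate numbers do not pair the mice.

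By RPKM over all mice the order was Adam9, Adam15, Adam10, Adam8, Adam17, Adam19, with no test. Adam8 ranked 4 in it, 6 by the Ct mean and 3 by the ECH mean, the HF mean and longest transcripts. Adam15 ranked 2 in it and 1, and Adam9 1 in it and 2, by the Ct mean, the HF mean and longest transcripts. Adam10 ranked 3 in it, 4 by the ECH and HF means and 5 by longest transcripts. Adam17 ranked 5 in it and 4 by the Ct mean and longest transcripts, and Adam19 ranked 6 in it and 5 by the Ct mean.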
